A study of Mus musculus with 24 samples.

Results

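The Slco organic anion transporters were followed here through 6 members, Slco1a1, Slco1a6, Slco2a1, Slco2b1, Slco3a1 and Slco4c1, in kidneys of mice with and without a tubular deletion of Pex5. The members were chosen by symbol, out of 15 annotated genes whose symbol starts with Slco and 55335 genes in the data, and the contrasts of cKO against Ctrl mice in both sexes were part of that choice. Values of those contrasts are therefore given as a description of the members, without a test. The contrasts of males against females were not named in that choice and were tested. They share their mice with the genotype contrasts, and earlier results of these data were known when the members were chosen.

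Slco genes encode OATP proteins, which carry amphipathic organic anions across the plasma membrane without using ATP. Their substrates include bile acids, steroid sulfates and glucuronides, thyroid hormones, prostaglandins and many drugs. In the kidney they work beside the organic anion transporters of the Slc22 family and the ABC efflux pumps of the proximal tubule, and Slco1a1 is long known as a transporter with more mRNA in male than in female mouse kidney.

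RNA of whole kidneys was sequenced from 24 mice on a C57BL/6J background, with 6 control males (Ctrlm), 6 knockout males (cKOm), 6 control females (Ctrlf) and 6 knockout females (cKOf). All were homozygous for Pex5lox/lox and received doxycycline (DOX) over 2 weeks, starting 8 weeks after birth. The organs were taken 4 weeks after DOX ended, at 14 weeks. The cKO mice also carried Pax8-rtTA and LC1, which together switch on Cre recombinase in the whole renal tubule under DOX, whereas the Ctrl mice were littermates without this pair of transgenes. Pex5 encodes the receptor that imports most enzymes into peroxisomes. Because the organ was not sorted, vessels, glomeruli and interstitium contributed RNA in which Pex5 had not been targeted, and fewer cells of a type and less RNA per cell cannot be told apart.

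The gene counts of a library summed to between 19376152 and 28470831. Levels are given as CPM, read counts relative to the library total with TMM scaling, and 3 counts, the least taken as detection, were 0.105 to 0.155 CPM (counting error only). The targeted gene Pex5, counted over all exons, differed by -0.31 on the log2 scale in cKOm against Ctrlm (SE 0.08, edgeR adjusted p = 0.0219), and its female difference of -0.21 did not pass (edgeR adjusted p = 0.177). The paper found some full-length Pex5 mRNA and PEX5 protein left in cKOf kidneys, and proposes that excision was incomplete there. In cKOm kidneys it found almost no PEX5 protein, and by electron microscopy almost no proximal tubule peroxisomes in either sex. Sex and completeness of the deletion therefore cannot be told apart where genotype differences of males and females are compared. Proximal tubule markers were abundant in all groups (the lowest Slc34a1 level was 2616.6 CPM). Of 9 hepatocyte markers, the most abundant was Alb, which exceeded 100 CPM in 5 kidneys, Ctrlm 1, 2, 3 and 4 and cKOm 4 (224 to 662 CPM), against 15.1 to 60.2 CPM in the others, so liver transcripts were unevenly spread over the groups. Several results are also given without these kidneys, which leaves 2 Ctrlm and 5 cKOm kidneys.

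The 6 members lie on 4 chromosomes of GRCm38. Slco1a1 occupies chromosome 6 from 141907282 to 141946962, and its relative Slco1a6 lies 139 kb away at 142085761 to 142208521, both on the minus strand and both in a cluster with Slco1c1, Slco1b2, Slco1a4 and Slco1a5. Slco2b1 (99657804 to 99711340) and Slco3a1 (74275419 to 74554780) are on chromosome 7, Slco2a1 is on chromosome 9 (102988712 to 103096002) and Slco4c1 is on chromosome 1 (96816270 to 96872171). The coding sequences of Slco1a1 and Slco1a6 have the same length of 2010 bases and were 83.9% identical in a global alignment. Among the other pairs of members the highest identity was 63.7%, between Slco2a1 and Slco2b1. Reads of close relatives could nevertheless be told apart over most of each transcript, since 1.64% of the 50-base stretches of Slco1a1 and 6.59% of those of Slco1a6 also occurred in transcripts of another gene.

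Promoter sequence is shown for 4 members, Slco1a1 and Slco1a6 as neighbours in the cluster, and Slco4c1 and Slco2a1 as members with opposite differences between the sexes. RefSeq (GRCm38.p6) gave a start site for 5 of the 6 members, and the 250 bases before it are printed 5′ to 3′ in lower case on the strand of the gene. The windows are chr6:141946963-141947212 (minus) for Slco1a1, chr6:142186150-142186399 (minus) for Slco1a6, chr1:96872172-96872421 (minus) for Slco4c1 and chr9:103008237-103008486 (plus) for Slco2a1. The starts of Slco1a6 and Slco2a1 lie inside the gene as annotated by GENCODE, which begins further upstream. Capitals mark matches to 3 short motifs searched on both strands, which do not overlap here: the steroid receptor half-site AGAACA, the nuclear receptor half-site AGGTCA, and the STAT site TTCNNNGAA.
Slco1a1: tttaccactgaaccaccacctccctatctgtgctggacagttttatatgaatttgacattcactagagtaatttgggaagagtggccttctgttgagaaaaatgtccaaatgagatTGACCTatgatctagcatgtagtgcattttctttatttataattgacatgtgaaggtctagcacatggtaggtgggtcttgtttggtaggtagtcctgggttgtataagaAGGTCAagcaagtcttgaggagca
Slco1a6: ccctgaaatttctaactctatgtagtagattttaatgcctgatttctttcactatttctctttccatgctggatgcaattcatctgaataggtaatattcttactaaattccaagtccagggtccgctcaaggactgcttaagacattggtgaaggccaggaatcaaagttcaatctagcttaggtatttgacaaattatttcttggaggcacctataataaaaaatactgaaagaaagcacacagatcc
Slco4c1: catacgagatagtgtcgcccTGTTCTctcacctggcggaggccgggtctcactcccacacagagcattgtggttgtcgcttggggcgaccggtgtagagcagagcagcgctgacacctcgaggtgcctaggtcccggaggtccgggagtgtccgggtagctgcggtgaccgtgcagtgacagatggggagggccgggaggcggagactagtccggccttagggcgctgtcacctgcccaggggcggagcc
Slco2a1: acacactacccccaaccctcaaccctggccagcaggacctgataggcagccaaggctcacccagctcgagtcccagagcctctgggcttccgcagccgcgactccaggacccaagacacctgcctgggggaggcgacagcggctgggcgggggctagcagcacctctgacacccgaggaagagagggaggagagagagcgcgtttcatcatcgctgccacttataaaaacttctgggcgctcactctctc
The window of Slco1a1 held the nuclear receptor half-site 2 times, at 134 to 129 bases before the start on the opposite strand and at 24 to 19 bases before it. That of Slco4c1 held AGAACA on the opposite strand (TGTTCT), 230 to 225 bases before the start. Neither the Slco1a6 nor the Slco2a1 window held any of the 3. A window of Slco2b1, whose sequence is not printed, held TGTTCT at 96 to 91 bases before the start. It also held the STAT site (TTCCGGGAA) at 133 to 125 bases before the start, and the windows of other Slco2b1 starts held none of the 3. Of 32851 promoter windows of the same length, 16.1% held AGAACA, 14% AGGTCA and 7.0% the STAT site, so these matches are descriptions of the letters and not of a bound factor.

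To compare genes, levels were divided by the length of the merged exons. In Ctrlm kidneys Slco1a1 and Slco1a6 were the most abundant members, with 59.7 ± 22.6 and 48.5 ± 3.47 CPM per kilobase (SD, n = 6), and their ranges overlapped. Slco3a1 followed with 19.5 ± 3.01, Slco4c1 with 9.63 ± 0.840, Slco2b1 with 6.25 ± 0.720 and Slco2a1 with 2.62 ± 0.145 CPM per kilobase, and the ranges of these 4 did not overlap with this length. With the longest transcript as the length, Slco4c1 and Slco2b1 were not clearly apart in Ctrlm kidneys (9.63 ± 0.840 and 8.50 ± 0.979 CPM per kilobase). In Ctrlf kidneys Slco1a6 led alone with 56.4 ± 7.69 CPM per kilobase. Slco2b1, Slco3a1 and Slco2a1 lay between 4.49 and 6.06 with overlapping ranges, and their order changed when the longest transcript was used as the length (8.24, 10.4 and 8.53 CPM per kilobase in the same order). Slco4c1 was at 1.69 ± 0.602 and Slco1a1 at 0.0724 ± 0.150, so that the member with the highest mean in males was the lowest in females.

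**Figure D1:**
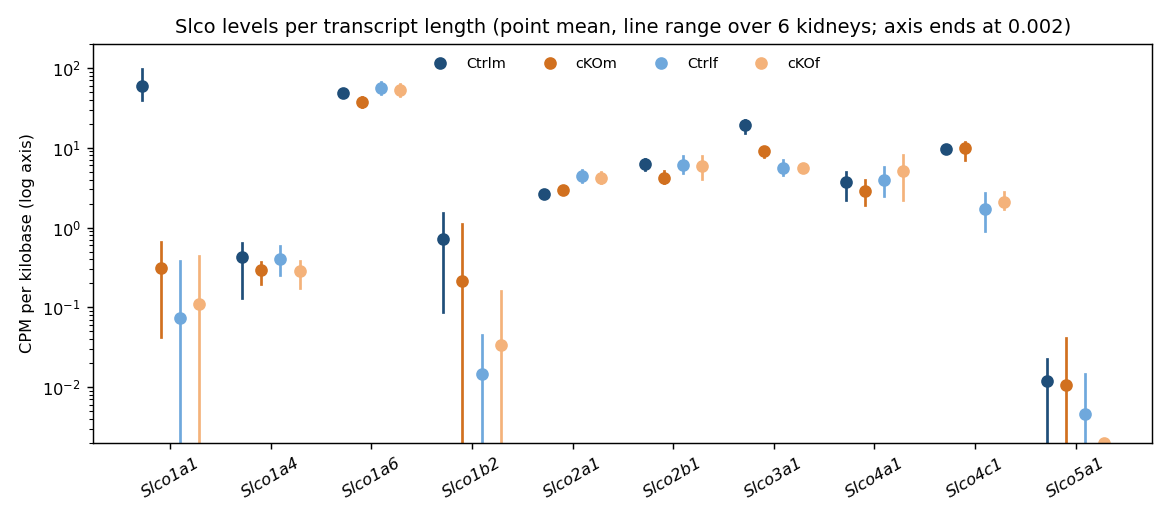
Level of each Slco transcript that exceeded 0.5 CPM in a kidney, in CPM per kilobase of merged exons on a log axis. Points are group means and lines the range over 6 kidneys, with values of 0 drawn at the lower edge. Slco1a1 stands at 59.7 in Ctrlm and at 0.310 or less in the other groups, while Slco1a6 stands between 37.1 and 56.4 in all groups.

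Slco1a1, an OATP of the proximal tubule brush border that takes steroid conjugates and bile acids, was abundant in Ctrlm kidneys, low in cKOm kidneys and at or under the limit of detection in most female kidneys. The 6 Ctrlm kidneys held 207 to 509 CPM with a median of 275, and the 6 cKOm kidneys 0.223 to 3.44 CPM with a median of 1.38. Ctrlf kidneys held 0 to 1.99 CPM (median 0.0878, 0 to 45 reads) and cKOf kidneys 0 to 2.34 CPM (median 0.158, 0 to 50 reads). No kidney outside the Ctrlm group came near the lowest Ctrlm kidney.

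The mean of Slco1a1 was 315 ± 119 CPM in Ctrlm and 1.64 ± 1.14 CPM in cKOm mice (SD, n = 6), 193-fold lower in the latter. The log2 difference was -7.56 (SE 0.56), the third lowest of 16092 tested transcripts in cKOm against Ctrlm. In females the same contrast gave 0.63 (SE 0.93), from means of 0.578 and 0.382 CPM. This female value rested on few reads and was 3.02 without Ctrlf 2 and -0.68 at the other end of the range with 1 mouse left out. The male minus the female difference was -8.19 on the log2 scale (SE 1.19), in which sex and completeness of the deletion cannot be told apart. Of 6 proximal tubule markers, Lrp2, Slc34a1 and Aqp1 were lower in cKOm than in Ctrlm mice. The other 3 did not pass, with Slc5a12 at 0.63 (SE 0.19, edgeR adjusted p = 0.0512), Slc5a2 at 0.10 and Cubn at -0.17. All 6 summed to 7715.8 to 8719.2 CPM in Ctrlm and 6321.6 to 7097.1 CPM in cKOm kidneys. The thick ascending limb marker Slc12a1 was higher in cKOm than in Ctrlm mice (0.33, SE 0.08, edgeR adjusted p = 0.0116). Lrp2, Slc34a1, Aqp1 and Slc12a1 did not pass when the 5 kidneys with liver transcripts were left out. The part of these markers in the differences of Slco1a1, Slco1a6 and the other tubular carriers was not tested.

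Between the sexes, Slco1a1 was higher in every Ctrlm than in every Ctrlf kidney, with a log2 fold change of 9.69 (SE 0.65, edgeR quasi-likelihood test, adjusted p = 1.1e-11), the fourth highest of all tested transcripts. The exact permutation test of 6 kidneys against 6 gave p = 0.00216, two-sided, the smallest value this design allows. Among cKO mice the ranges of the sexes overlapped, and the log2 fold change of cKOm against cKOf was 1.50 (SE 0.72, edgeR adjusted p = 0.195). That comparison depended on cKOf 2, without which it was 2.81 and passed the threshold (edgeR adjusted p = 0.0250).

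Slco1a1 was then set beside the liver transcripts of each kidney. Ctrlm 5 and 6, with 24.7 and 15.1 CPM of Alb, held 405 and 207 CPM of Slco1a1, whereas cKOm 4, with 235 CPM of Alb, held 2.44 CPM. Without the 5 kidneys with liver transcripts the log2 difference of cKOm against Ctrlm was -7.69 (SE 0.74), and that of Ctrlm against Ctrlf was 9.68 (SE 0.78, edgeR adjusted p = 1.3e-08). Slco1b2, a hepatocyte OATP that is no member and is 1 of the 9 hepatocyte markers, was at 3.28 to 7.61 CPM in the 5 kidneys with liver transcripts and at 0 to 0.798 CPM in the others.

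**Figure D2:**
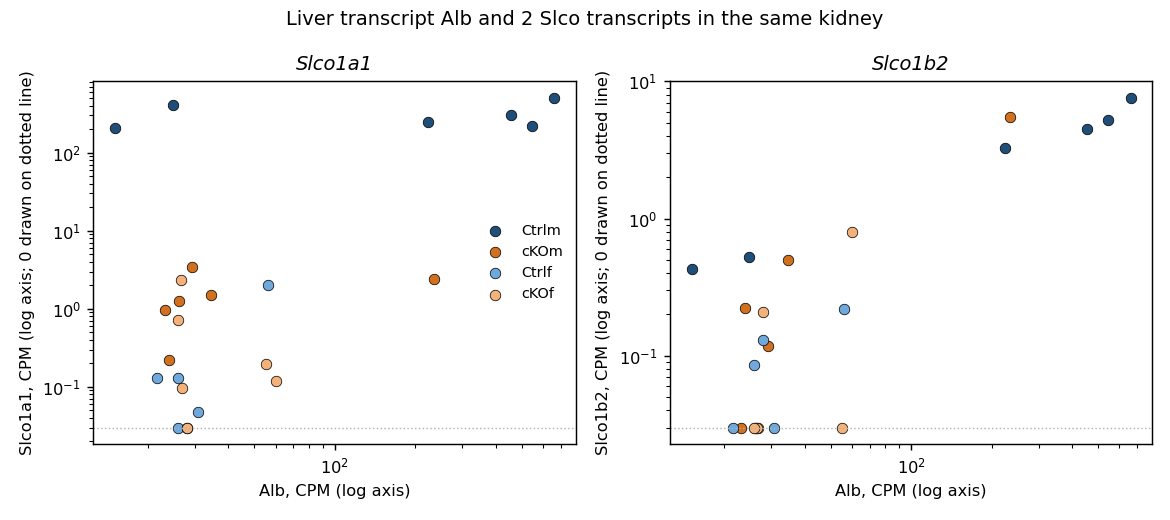
Each point is 1 kidney, with Alb on the horizontal and Slco1a1 (left) or Slco1b2 (right) on the vertical log axis, all in CPM, and a value of 0 drawn on the dotted line. Slco1a1 separates the 6 Ctrlm kidneys from the others at any Alb level, whereas the 5 kidneys with Alb above 100 CPM hold the most Slco1b2.

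Slco1a6, the closest relative of Slco1a1 among the members, was abundant in both sexes. Ctrlm kidneys held 164 to 204 CPM (median 183) and cKOm kidneys 125 to 164 (median 139), against 178 to 255 in Ctrlf (median 204) and 169 to 241 in cKOf kidneys (median 191). The highest cKOm kidney reached the lowest Ctrlm kidney but stayed under every cKOf kidney. The log2 difference of cKOm against Ctrlm was -0.39 (SE 0.10) and that of cKOf against Ctrlf -0.11 (SE 0.10). Between the sexes, Slco1a6 was lower in cKOm than in cKOf kidneys by a log2 fold change of -0.50 (SE 0.10, edgeR adjusted p = 6.9e-04, exact permutation p = 0.00216). The Ctrl kidneys gave -0.22 (SE 0.10), which did not pass the threshold (edgeR adjusted p = 0.161, exact permutation p = 0.0433).

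An antisense gene inside Slco1a6, Gm20400, was chosen after its values were seen. It shares no exon bases with Slco1a6 and held 1.27 ± 0.946 CPM in Ctrlm and 9.86 ± 3.85 CPM in cKOm kidneys (SD, n = 6), and the ranges of these groups did not overlap. It was higher in cKOm than in Ctrlm mice by a log2 fold change of 2.91 (SE 0.40, edgeR adjusted p = 2.1e-05), while cKOf against Ctrlf gave 0.22 (SE 0.38, edgeR adjusted p = 0.855). Whether reads were counted by strand is not given in the sources used here, so unspliced reads of Slco1a6 and reads of Gm20400 cannot be told apart.

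In the rest of the Slco1 cluster, Slco1b2 gave -1.76 in cKOm against Ctrlm (SE 0.94, edgeR adjusted p = 0.379) and was higher in Ctrlm than in Ctrlf kidneys, as given with the other Slco genes. Slco1a4, a brain and liver OATP, held 0.835 to 4.05 CPM over all kidneys and passed no contrast (edgeR adjusted p = 0.383 in cKOm against Ctrlm and 0.913 in Ctrlm against Ctrlf). Slco1a5 had 0 to 2 reads and Slco1c1 0 to 5 reads per kidney. Within 1 Mb of the start of Slco1a1, 18 transcripts that are no member were tested. In cKOm against Ctrlm 2 of them were higher and 3 lower, where 4.14% and 4.90% of all tested transcripts were. In Ctrlm against Ctrlf 9 were higher, Slco1b2 among them, and 1 lower, where 8.17% and 7.48% of all were, and neighbours are not independent of each other. Gm6614, an Slco1a-like gene 64.5 kb from Slco1a1 and chosen after its values were seen, was higher in Ctrlm than in Ctrlf kidneys by 2.91 on the log2 scale (SE 0.56, edgeR adjusted p = 5.3e-04) but gave 0.27 (SE 0.48, edgeR adjusted p = 0.865) in cKOm against Ctrlm. Its difference between the sexes did not pass without the 5 kidneys with liver transcripts (edgeR adjusted p = 0.167). Pex5 itself lies 17.5 Mb from Slco1a1 on the same chromosome.

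**Figure D3:**
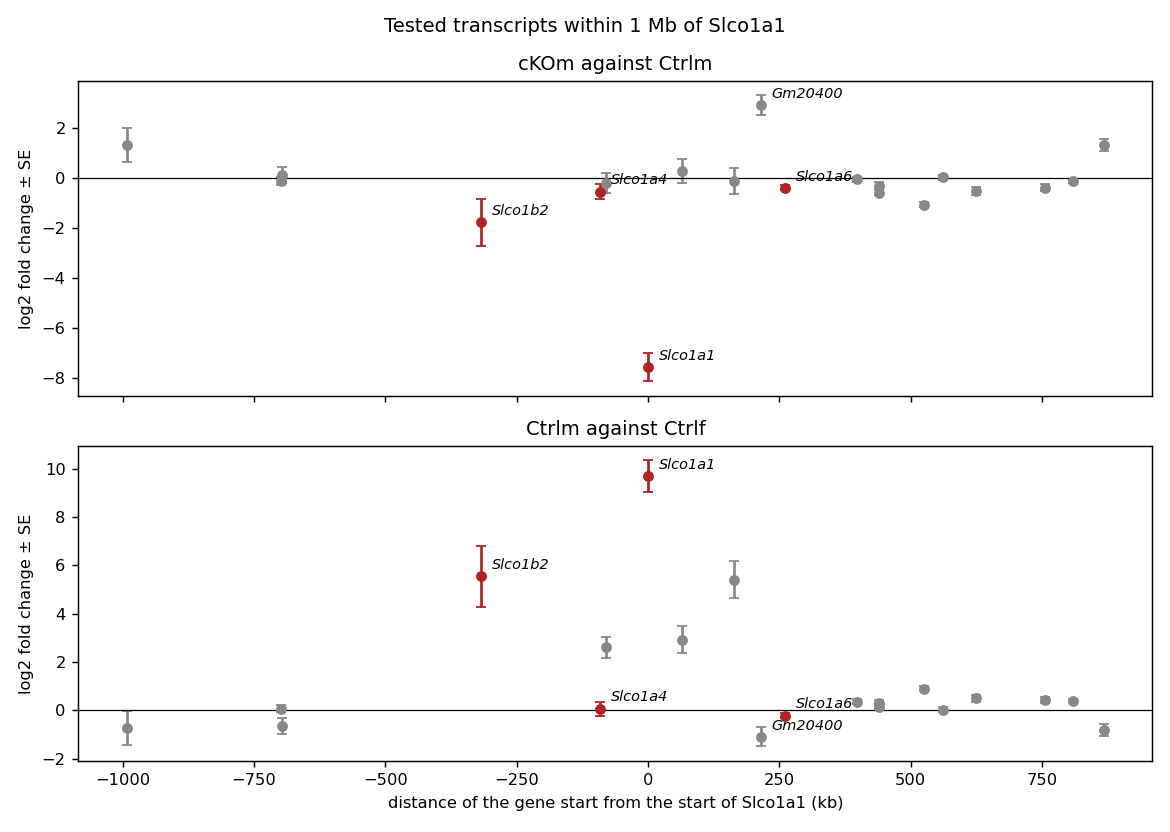
Log2 fold change with its SE of each tested transcript within 1 Mb of the start of Slco1a1, by distance in kb, for cKOm against Ctrlm (top) and Ctrlm against Ctrlf (bottom). Slco genes are red. Slco1a1 stands at -7.56 in the top and 9.69 in the bottom panel, and Slco1a4 and Slco1a6 lie within 1 log2 unit of 0 in both.

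Slco3a1 encodes a broadly expressed OATP that transports prostaglandins and thyroxine. It had its highest level in Ctrlm mice, with 131 to 192 CPM (median 169), against 64.7 to 85.9 in cKOm (median 77.4), 38.2 to 58.8 in Ctrlf (median 46.8) and 43.2 to 51.8 in cKOf kidneys (median 46.7). All cKOm kidneys were below all Ctrlm kidneys and above all female ones. The log2 difference of cKOm against Ctrlm was -1.09 (SE 0.10), which placed the cKOm mean 60.5% of the way from the Ctrlm to the Ctrlf mean on the log2 scale. In females the difference was -0.02 (SE 0.10). The sexes differed in Ctrl mice by 1.79 (SE 0.10, edgeR adjusted p = 4.5e-13) and in cKO mice by 0.72 (SE 0.10, edgeR adjusted p = 7.1e-06), higher in males in both.

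Slco4c1, the OATP of the basolateral proximal tubule that takes digoxin and thyroid hormone, was high in males of both genotypes. It was at 41.7 to 52.9 CPM in Ctrlm (median 46.8) and 34.1 to 57.6 in cKOm kidneys (median 48.8), against 4.44 to 13.3 in Ctrlf (median 8.24) and 8.49 to 13.8 in cKOf kidneys (median 9.28). The lowest male kidney was above the highest female one. The log2 fold change was 2.51 in Ctrlm against Ctrlf (SE 0.18, edgeR adjusted p = 3.2e-11) and 2.21 in cKOm against cKOf (SE 0.18, edgeR adjusted p = 3.2e-10). The genotype differences were 0.03 (SE 0.16) in males and 0.33 (SE 0.18) in females. Thus Slco1a1, Slco3a1 and Slco4c1 were all higher in Ctrlm than in Ctrlf kidneys, while in cKOm against Ctrlm they differed by -7.56, -1.09 and 0.03. The antisense gene Panct2 overlaps Slco4c1 without sharing exon bases, and was also higher in males, by 0.97 in Ctrlm against Ctrlf (SE 0.19, edgeR adjusted p = 6.2e-04) and by 1.21 in cKOm against cKOf (SE 0.19, edgeR adjusted p = 3.5e-05). It held at most 297 reads in a kidney, and since the strand setting is not given, its reads and unspliced reads of Slco4c1 cannot be told apart.

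Slco2a1, the prostaglandin transporter, showed the opposite difference between the sexes. It was at 33.4 to 39.0 CPM in Ctrlm (median 35.5), 37.3 to 45.5 in cKOm (median 39.7), 49.7 to 71.3 in Ctrlf (median 61.2) and 48.8 to 67.2 in cKOf kidneys (median 55.5). Every male kidney was below every female kidney. The log2 fold change was -0.77 in Ctrlm against Ctrlf (SE 0.09, edgeR adjusted p = 4.5e-07) and -0.50 in cKOm against cKOf (SE 0.09, edgeR adjusted p = 2.5e-04), and the exact permutation test gave p = 0.00216 in both. The genotype difference was 0.18 (SE 0.09) in males and -0.09 (SE 0.09) in females. Slco2a1 is also made by endothelium and collecting duct. The summed level of 7 endothelial markers was 414 to 524 CPM in Ctrlm and 476 to 520 in Ctrlf kidneys, and none of them passed in that contrast, whereas 5 collecting duct markers summed to 133 to 178 and 161 to 217 CPM, and 1, Scnn1g, was lower in Ctrlm. In cKOm against cKOf 2 endothelial (Emcn and Tie1) and 4 collecting duct markers (Aqp2, Aqp3, Avpr2 and Scnn1g) were lower, or 1 and 2 without the 5 kidneys with liver transcripts, and their part in the Slco2a1 difference was not tested.

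Slco2b1 encodes an OATP for steroid sulfates such as estrone sulfate. It was at 31.2 to 43.2 CPM in Ctrlm (median 37.0), 21.3 to 30.1 in cKOm (median 24.8), 28.4 to 47.1 in Ctrlf (median 34.3) and 24.3 to 46.4 in cKOf kidneys (median 34.5). The cKOm kidneys were all below the Ctrlm kidneys, and the other 3 groups overlapped. The log2 difference of cKOm against Ctrlm was -0.58 (SE 0.13). It was -0.48 (SE 0.20) without the 5 kidneys with liver transcripts and -0.35 (SE 0.13) with the level of liver transcripts as a covariate. In females the difference was -0.03 (SE 0.13). Between the sexes Slco2b1 was lower in cKOm than in cKOf kidneys by -0.50 on the log2 scale (SE 0.13, edgeR adjusted p = 0.00980, exact permutation p = 0.0108), whereas Ctrlm against Ctrlf gave 0.04 (SE 0.13, edgeR adjusted p = 0.882, exact permutation p = 0.727). Its antisense neighbours Gm15635 and Gm34280, which share exon bases with it, held at most 3 reads in a kidney.

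**Figure D4:**
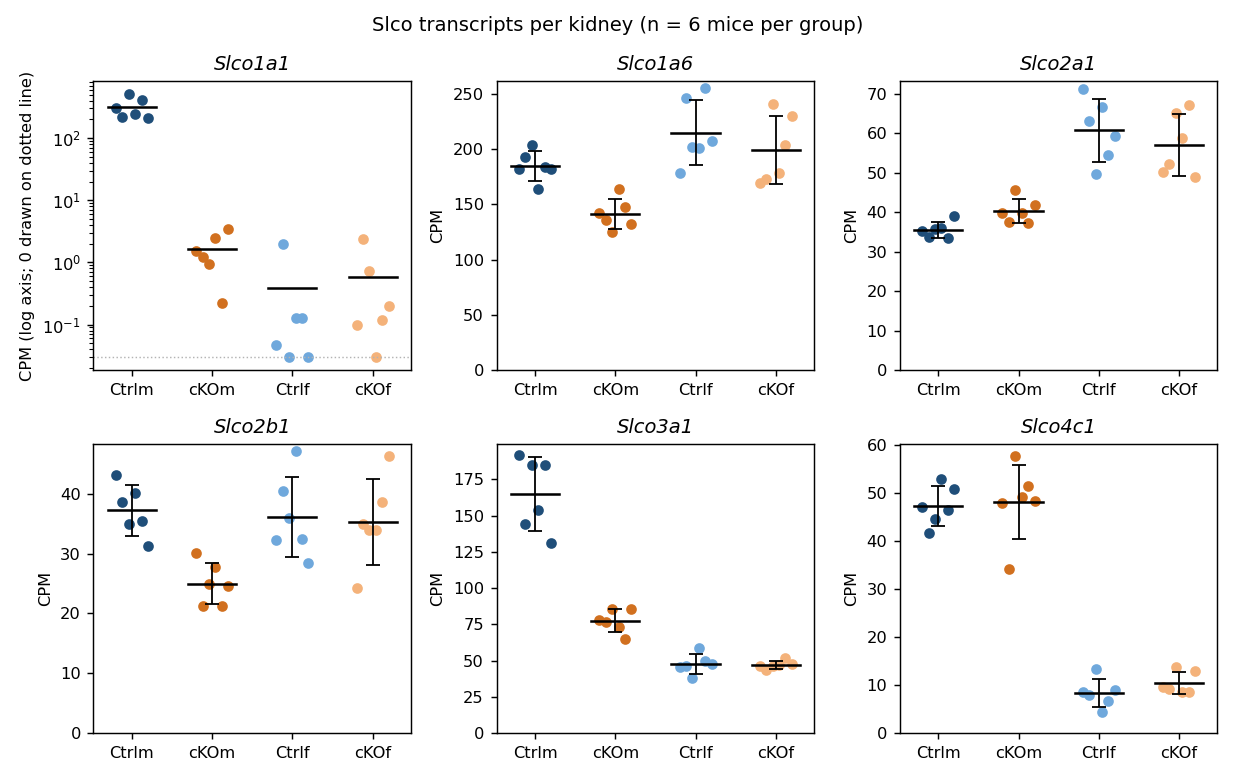
CPM of the 6 members in each of the 24 kidneys, with the group mean and, except for Slco1a1 on its log axis, the SD (n = 6). Slco1a1 is at 207 CPM or more in Ctrlm mice only, Slco3a1 steps down from Ctrlm to cKOm to the females, Slco4c1 separates the sexes, and Slco2a1 is lowest in males.

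The tests between the sexes over all members gave 4 of 6 past the threshold in Ctrlm against Ctrlf, where 15.7% of 16092 tested transcripts passed. Slco1a1, Slco3a1 and Slco4c1 were higher in males (8.17% of all transcripts) and Slco2a1 was lower (7.48%), with a median log2 fold change of 0.92 over the members and -0.03 over all transcripts. In cKOm against cKOf 5 of 6 passed, against 9.72% of all. Here Slco3a1 and Slco4c1 were higher in males (4.80% of all) and Slco1a6, Slco2a1 and Slco2b1 were lower (4.92%). Both counts use kidneys of the genotype contrasts that were part of the choice, and are not independent of it. Slco1a6 and Slco2b1, which passed in cKO mice only, gave -0.39 and -0.58 in cKOm against Ctrlm. The count in Ctrl mice was 4 with each mouse left out in turn, and that in cKO mice 5 or 6. In the contrasts that were part of the choice, no member is called. Of all transcripts, 9.05% were past the threshold in cKOm against Ctrlm, 4.14% higher and 4.90% lower. In cKOf against Ctrlf 0.851% were, 0.391% higher and 0.460% lower. Without the 5 kidneys with liver transcripts, cKOm against Ctrlm gave -0.46 (SE 0.14) for Slco1a6, -0.48 (SE 0.20) for Slco2b1 and -1.05 (SE 0.14) for Slco3a1, on fewer kidneys.

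**Figure D5:**
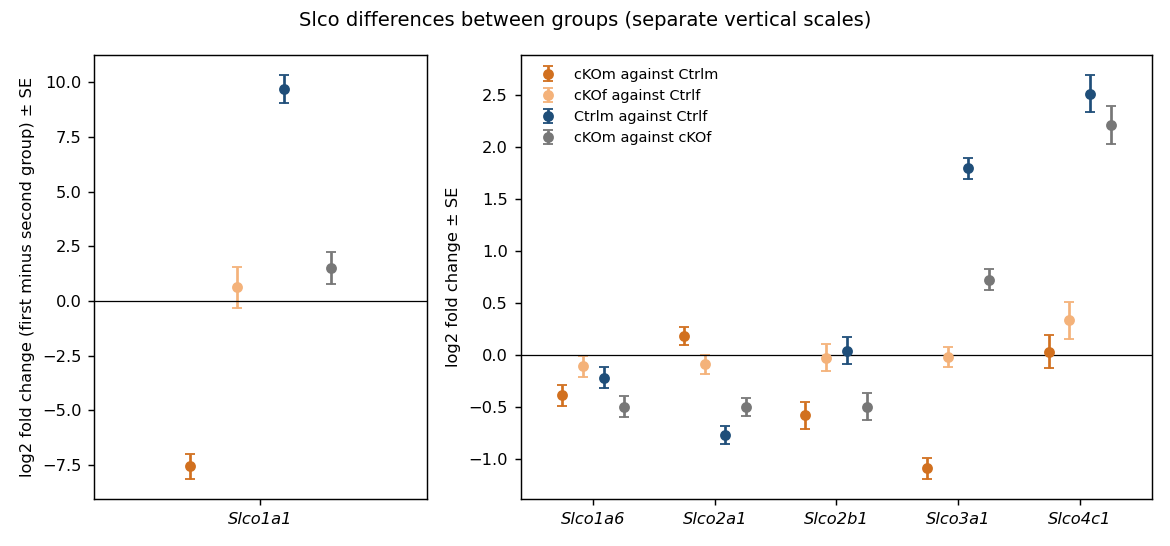
Log2 fold change with its SE of the 6 members in 4 contrasts, with Slco1a1 on a scale of its own. The female genotype contrast lies between -0.11 and 0.63, while the male one reaches -7.56 for Slco1a1 and -1.09 for Slco3a1.

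Of the remaining Slco genes, Slco4a1, a thyroid hormone OATP, was the one other transcript at a substantial level, with 9.24 to 38.8 CPM over the kidneys. It was lower in cKOm than in cKOf kidneys (log2 fold change -0.84, SE 0.28, edgeR adjusted p = 0.0450) and passed no other contrast, and without the 5 kidneys with liver transcripts this difference was -0.95 (SE 0.30, edgeR adjusted p = 0.0539). Slco1b2 was higher in Ctrlm than in Ctrlf kidneys by 5.54 (SE 1.25, edgeR adjusted p = 0.00284), beside the liver transcripts given above, and was too low to be tested without those kidneys. Slco5a1 had at most 12 reads in a kidney, and Slco6b1, Slco6c1 and Slco6d1 had 0 reads in all 24.

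The transcripts with the pattern most like that of each member were found by Pearson correlation of log2 CPM over 24 kidneys, which largely reflects the group means they share. For Slco1a1 these were Amacr (r = 0.95), Ldhd (0.94) and Cndp2 (0.94), but with group means taken off r was 0.20, 0.32 and 0.29. For Slco3a1 they were Cndp2, Galns and Amacr (0.98 each, and 0.60, 0.68 and 0.46 within groups). Amacr, the racemase of the bile acid and branched fatty acid pathway, had group means of 281 CPM (Ctrlm), 109 (cKOm), 72.2 (Ctrlf) and 70.3 (cKOf). Slco4c1 was most like the Y-linked genes Uty and Kdm5d and the transcript Gm29650 (0.96 each, and -0.09 to 0.07 within groups).

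The members with a female-leaning or sex-neutral pattern had other partners. Slco2a1 was most like Abcc3 (r = 0.93, within groups 0.49), Arg2 (0.92, 0.46) and Ugt1a2 (0.91, 0.11). Slco1a6 was most like Slc3a1 (0.85, 0.48), Slc9a8 (0.84, 0.36) and Bdh1 (0.83, 0.38), and Slco2b1 like Mfsd4b1 (0.82, 0.60), Podn (0.81, 0.56) and Gstm1 (0.80, 0.55). Among the members, Slco1a1 and Slco3a1 had an r of 0.93 over the kidneys and 0.21 within groups.

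Other carriers of organic anions in the proximal tubule were taken from a list of 20 genes. In cKOm against Ctrlm 2 were higher and 8 lower (median log2 fold change -0.26, against 0.01 over all transcripts), and in cKOf against Ctrlf none passed. Slc22a7 (OAT2) fell from 227 ± 103 to 13.2 ± 5.31 CPM in males (SD, n = 6, log2 fold change -4.10, SE 0.30, edgeR adjusted p = 1.2e-09) and was at 262 and 259 CPM in Ctrlf and cKOf mice. Slc22a30 fell from 119 to 171 CPM over the Ctrlm kidneys to 37.0 to 64.8 CPM over the cKOm kidneys (log2 fold change -1.45, SE 0.24, edgeR adjusted p = 2.7e-04). The efflux pumps Abcc3 (MRP3) and Abcc4 (MRP4) were higher in cKOm than in Ctrlm mice, by 2.02 (SE 0.20) and 0.71 (SE 0.17) on the log2 scale (edgeR adjusted p = 7.6e-08 and 0.00854). Leaving out the 5 kidneys with liver transcripts gave 1 higher and 9 lower, and Abcc4 gave 0.68 (SE 0.25) and did not pass (edgeR adjusted p = 0.212). In Ctrlm against Ctrlf 7 of the 20 were higher and 6 lower, and in cKOm against cKOf 4 and 8. Slc22a30 (4.51, SE 0.28) and the urate transporter Slc22a12 (1.18, SE 0.11) were the highest in Ctrlm against Ctrlf, and Abcc3 (-5.15, SE 0.21) and Abcc4 (-1.62, SE 0.17) the lowest (edgeR adjusted p from 2.0e-16 to 6.1e-09 for Slc22a30, Slc22a12 and Abcc3, and 5.4e-08 for Abcc4).

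The genes that make, bind or degrade the substrates of OATPs were described in the same way. Of 15 prostaglandin genes, 1 was lower in cKOm against Ctrlm, where 4.90% of all tested transcripts were, so that the count is near that of any transcripts. It was the prostaglandin dehydrogenase Hpgd (log2 fold change -0.59, SE 0.13, edgeR adjusted p = 0.00543), and none passed in females. In Ctrlm against Ctrlf 1 was higher (Ptgr1, a reductase, 0.89, SE 0.15, edgeR adjusted p = 1.2e-04) and 3 were lower, Ptgds, Ptgfr and Hpgd (-0.99, SE 0.13, edgeR adjusted p = 2.8e-06), which like Slco2a1 was higher in females. In cKOm against cKOf 1 was higher and 3 were lower. Of 8 tested thyroid hormone genes, 3 were higher in cKOm against Ctrlm (Dio1, Slc16a10 and Slc7a8). The deiodinase Dio1 rose from 21.9 ± 7.10 to 39.3 ± 15.2 CPM (SD, n = 6, log2 fold change 0.85, SE 0.21, edgeR adjusted p = 0.0159). None of these 3 passed without the 5 kidneys with liver transcripts, and Dio1 gave 0.53 (SE 0.27, edgeR adjusted p = 0.417). None passed in females. In Ctrlm against Ctrlf the same 3 were lower, with Dio1 at -2.15 (SE 0.22, edgeR adjusted p = 3.5e-08), and 2 were without the 5 kidneys. In cKOm against cKOf 1 was lower.

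From a list of enzymes that convert or conjugate steroids and of related transferases, 9 of 18 tested were lower in cKOm than in Ctrlm mice, with none higher. In cKOf mice 1, the steroid reductase Srd5a1, was lower than in Ctrlf mice. Cyp7b1, an oxysterol and steroid hydroxylase, fell from 143 ± 34.8 to 24.3 ± 12.3 CPM in males (SD, n = 6, log2 fold change -2.56, SE 0.23, edgeR adjusted p = 2.6e-08), and the steroid reductase Srd5a2 fell by 1.85 on the log2 scale (SE 0.27, edgeR adjusted p = 5.0e-05). The 9 hepatocyte markers had a median log2 fold change of -1.91 in cKOm against Ctrlm, but did not all go 1 way. Alb and Apoa2 were lower past the threshold, Serpina1a was higher (0.94, SE 0.27, edgeR adjusted p = 0.0435) and Apoc3 gave 0.002. Of the 18 enzymes, 8 were lower without the 5 kidneys with liver transcripts, and Cyp7b1 gave -2.82 (SE 0.32, edgeR adjusted p = 1.6e-05). Like Slco1a1 and Slco3a1, most of this list was higher in Ctrlm than in Ctrlf kidneys (11 higher, 2 lower), with Ugt2b37 (5.95, SE 0.34) and Cyp7b1 (5.84, SE 0.28) at the top (edgeR adjusted p = 5.3e-13 and 9.2e-15), and in cKOm against cKOf 6 were higher and 2 lower.

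Genes known to depend on androgen in mouse kidney showed the same pair of directions as Slco1a1. Of 10, 8 were lower in cKOm than in Ctrlm mice and 9 were higher in Ctrlm than in Ctrlf mice, while none passed in cKOf against Ctrlf. Acsm3 fell from 488 to 1153.2 CPM over the Ctrlm kidneys to 29.2 to 81.4 CPM over the cKOm kidneys (log2 fold change -4.01, SE 0.33, edgeR adjusted p = 6.2e-09) and Slc7a13 from 817 ± 121 to 171 ± 36.9 CPM (-2.26, SE 0.36, edgeR adjusted p = 1.2e-04). Of these 10, 7 remained higher in cKOm than in cKOf mice, Slc7a13 by 6.79 (SE 0.48, edgeR adjusted p = 2.6e-11), where Slco1a1 gave 1.50. Of 5 female-predominant genes, 4 were higher in cKOm than in Ctrlm mice, among them Slc7a12 (3.25, SE 0.34, edgeR adjusted p = 3.4e-07) and Cyp4a14 (4.33, SE 0.55, edgeR adjusted p = 5.5e-06), none passed in cKOf against Ctrlf, and all 5 were lower in Ctrlm than in Ctrlf mice. In cKOm against cKOf 2 were lower. Both lists share single genes with other results here (Cndp2 and Abcc3), and in Ctrlm against Ctrlf 8 of 9 hepatocyte markers were also higher. Without the 5 kidneys with liver transcripts none of the hepatocyte markers passed in that contrast, while 9 androgen-dependent genes were higher and 4 female-predominant genes lower, and in cKOm against Ctrlm 6 and 4 were past the threshold in the directions given. Female-predominant genes lower in cKOm than in cKOf mice then numbered 4, and 1, Cyp4a14, was higher in cKOf than in Ctrlf mice (1.54, SE 0.39, edgeR adjusted p = 0.0392).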

How the data were processed

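RNA-Seq counts of 24 mouse kidneys were analysed, 6 each of Ctrlm, cKOm, Ctrlf and cKOf as given by the labels. The authors deposited raw counts per gene, 1 file per kidney and without normalization. The submitters' notes name cutadapt 1.8, STAR 2.5.3a and HTSeq 0.9.1 and the build GRCm38. Libraries were made from total RNA with TruSeq Stranded mRNA reagents, and the strand setting of the counter is not given in the sources used here. The 5 closing lines without a gene were left out, and 55154 of 55335 genes were found in GENCODE vM21, which gave symbols, positions and lengths. Depth was 19376152 to 28470831 counts per kidney.

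Transcripts that reached 1 CPM in any kidney were tested with edgeR 4.0.16 (R 4.3.3, TMM, 1 quasi-likelihood model of 4 groups). Benjamini-Hochberg adjustment ran over both genotype contrasts, and over both contrasts of the sexes, with a threshold of 0.05. Log2 CPM used a prior count of 2. The SE is the log2 fold change divided by the root of the F statistic. Exact permutation tests were two-sided. Kidneys of a group come from different mice and differed by more than sampling noise (60 pairs, the lowest chi-square per degree of freedom being 9.83). On simulated data with 200 transcripts changed by 1 on the log2 scale, Ctrlm against Ctrlf recovered 164 with 10 false calls among 15718 transcripts. These counts were drawn from dispersions that edgeR estimated, with a common mean for all groups apart from the changed transcripts. They were adjusted within the contrast, so the shared adjustment and the uneven liver transcripts were not part of this check.

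The members and gene lists were chosen with earlier results of these data known. Named were the members, all other Slco genes, Pex5, genes among the 2 highest and 2 lowest of each list in cKOm against Ctrlm and in Ctrlm against Ctrlf, the most abundant gene of a marker list or one at 0 throughout, and for each member the 3 transcripts of at least 1 mean CPM with the highest correlation. Other markers listed were those of podocytes, thick ascending limb, macrophages and adrenal cortex. Of these, 3 of 4 podocyte markers and 2 of 3 thick ascending limb markers were lower in Ctrlm than in Ctrlf kidneys, 1 of 4 macrophage markers (Csf1r) was lower and 1 of 3 thick ascending limb markers higher in cKOm than in Ctrlm, of which 1 podocyte marker passed without the 5 kidneys with liver transcripts, and of 4 adrenal markers Cyp11b2 was at 0 throughout. Alternatives were limma-voom (limma 3.58.1), DESeq2 1.42.0, RLE normalization, other filters, the 2 groups alone, adjustment within a contrast, a replicate block, a liver score as covariate, each mouse left out, and, chosen after seeing the data, leaving out 5 kidneys with Alb above 100 CPM. Coding sequences were aligned with Biopython 1.88. Figures used matplotlib 3.10.9. Some genes of the lists that the rule selects are not reported here.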

Additional observations from a re-analysis of the deposited data

Results flagged for a closer look

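Of 24 groups of 6 kidneys tested for a kidney apart from the others (each member in each group), 2 were flagged, both for Slco1a1 in females, and chance flags about 1 in 20. Ctrlf 2 held 1.99 CPM of Slco1a1, while the next kidney of its group held 0.129 CPM. Among cKOf kidneys, cKOf 2 held 2.34 CPM and the next 0.720 CPM. The same pair of kidneys also had the most Slc7a13 (6.01 and 5.42 CPM, against at most 2.91 in the 10 other female kidneys) and the most Cyp2j13 (2.78 and 3.32 CPM, against at most 2.03), transcripts of the androgen-dependent list. Acsm3 of the same list was at 6.27 and 6.87 CPM, and 1 other female kidney was above Ctrlf 2, with 6.87 CPM. Their levels of the Y-linked genes Uty and Kdm5d were at most 0.0467 CPM. These companions were chosen after the values were seen, and the cause was not tested.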

How the results depend on the processing

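Limma-voom, DESeq2, RLE normalization, the other filters, the 2 groups alone, adjustment within a contrast and the replicate block left the 24 log2 fold changes of the members on the same side of the threshold (sexes) or within 1 SD of the value given (genotype). Limma-voom gave 11.39 for Slco1a1 in Ctrlm against Ctrlf and 2.40 in cKOm against cKOf, larger than the values given, and 1.12 in cKOf against Ctrlf. With the replicate block, Slco1a1 gave 9.90 in Ctrlm against Ctrlf and -7.60 in cKOm against Ctrlm. The block changed no call of a member between the sexes, and left 1268 transcripts past the threshold in cKOm against Ctrlm. Same-numbered kidneys are different mice and did not deviate together (r over 0.1 in 3 of 36 pairs). With the liver covariate, Slco2b1 was -0.35 in cKOm against Ctrlm. In that contrast 879 transcripts were past the threshold, against 1456, while Ctrlm against Ctrlf gave 1569, against 2519. Without the 5 kidneys with Alb above 100 CPM these counts were 599 and 1481, and cKOf against Ctrlf gave 83 against 137. The small difference of Slco2b1 in Ctrlm against Ctrlf turned to -0.26 with the liver covariate and to -0.09 without the 5 kidneys. Adjustment within the contrast gave 43 transcripts in cKOf against Ctrlf.

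With 1 mouse left out at a time, Slco1a1 ranged from -7.95 to -7.35 in cKOm against Ctrlm, from 9.43 to 12.09 in Ctrlm against Ctrlf, from 1.11 to 2.81 in cKOm against cKOf and from -0.68 to 3.02 in cKOf against Ctrlf. Slco2b1 ranged from -0.02 to 0.15 (-0.002 without Ctrlm 1) in Ctrlm against Ctrlf. The causes were not tested. The adjusted p of the alternatives was between 2.6e-19 and 1.3e-07 for Slco1a1 in Ctrlm against Ctrlf, and between 0.0250 and 0.416 in cKOm against cKOf. The depth limits Slco1a1 in females, where Ctrlf kidneys other than Ctrlf 2 held at most 4 reads.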
